A study of Mus with 7 samples.

Results

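The genes described are 43 genes of the lysosome, chosen by their symbols from 31053 genes in the deposited count files. They comprise 8 genes of cathepsins and another peptidase, 10 hydrolases and cofactors that act on lipids and glycans, 6 membrane proteins, the glycoproteins Creg1 and Grn, the transcription factor Tfeb, and 16 genes of the proton pump, the V-ATPase. They were measured in FLMs, self-renewing macrophages grown from the fetal liver of C57BL/6J mice with 30 ng/mL GM-CSF, by droplet-based single-cell RNA sequencing in 7 libraries. Con cells were grown with 10% FBS and collected before any treatment. For the other 6 libraries the cells spent 24 h in medium with 0.25% FBS and 8.3 µM BSA, either with 25 µM of the omega-3 fatty acid DHA (DHA) or with the BSA carrier alone (Veh). These cells were then collected after 0, 1 or 4 h with 20 ng/mL LPS, which gives Veh.LPS.0, Veh.LPS.1, Veh.LPS.4, DHA.LPS.0, DHA.LPS.1 and DHA.LPS.4. Con and Veh.LPS.0 differ in serum, in BSA and in time in culture, and these cannot be told apart.

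Lysosomes are acidic organelles in which macrophages break down what they engulf and what they recycle from their own cytoplasm. The V-ATPase fills them with protons. Its V1 sector, in the cytosol, splits ATP, and its V0 sector, in the membrane, carries the protons, so that the acid hydrolases inside can work. Cathepsins cut proteins, and other hydrolases take lipids and sugar chains apart. TFEB and its relatives TFE3 and MITF are transcription factors that switch on many lysosomal genes as a group. In foamy, lipid-laden macrophages, lysosomal acid lipase, the product of Lipa, frees fatty acids and cholesterol from the lipids brought to the lysosome.

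Each condition had 1 library. Differences between conditions therefore have no replicate check, and no test was made. Barcodes were kept with more than 20000 UMIs (unique molecular identifiers, 1 per captured RNA molecule), at least 2000 genes and under 20% of UMIs from mitochondrial genes. That left 692 to 3073 cells per library, with a median of 29369 to 56239 UMIs per cell. The share of barcodes kept was 40.6% to 62.5% in Con and Veh and 12.1% to 18.5% in DHA. Between 3 and 47 kept cells per library, at most 1.71%, had a barcode that another library also held. A list of 9 macrophage markers summed to 4641 to 4914 CPM (UMIs per 1000000 UMIs of the library) in each library, with Mertk at most 0.0314 CPM and Mrc1 at most 1.63 CPM. Lists for 7 other kinds of cells reached at most 7.53 CPM, the neutrophil list in DHA.LPS.4. A list of 5 osteoclast genes summed to 0.294 to 4.99 CPM, with Calcr at 0 in every library.

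UMIs were summed over the kept cells of each library and divided by the library's total to give CPM. Ratios of CPM are given as log2 values, with exact binomial 95% intervals that cover counting error only. A gene is called higher or lower where the CPM differed by more than 1.5-fold and a UMI of it was found in 50% or more of the cells in either library, which is a rule of size, not a test. In every comparison 37 of the 43 members met the condition on cells. The other 6 were Ctsh, Mcoln1, Gpnmb, Tfeb, Atp6v0c and Atp6v0d2. Ctsh, a cathepsin, had at most 0.0629 CPM in any library. Mcoln1, the lysosomal calcium channel, had 5.66 to 10.4 CPM. Atp6v0c, the ring subunit of V0, had 1.62 to 2.87 CPM, and RefSeq lists pseudogenes named Atp6v0c-ps1 and Atp6v0c-ps2, so its level is uncertain. RefSeq also lists a pseudogene named Cd63-ps, and whether it affected the counts of Cd63 was not tested. In the RefSeq annotation 15 of the 43 members overlap another gene, and how reads from such stretches were assigned is not given in the sources used here.

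Together the 43 members took 0.732% of all UMIs in Con. Their share was 0.926%, 0.896% and 0.900% in Veh at 0, 1 and 4 h of LPS, and 1.15%, 1.12% and 1.15% in DHA at the same hours. The share was thus lowest in Con and higher in each DHA library than in the Veh library of the same hour, while the hours of LPS differed little within a treatment. These are shares of total UMIs, and comparisons of 4 h with 0 h of LPS depend on the scaling, as described below. By total UMIs that steady sum covered opposite differences of its parts. In Veh the lipid and glycan hydrolases summed to 1332 CPM at 0 h and 844 CPM at 4 h, while the cathepsins with Tpp1 summed to 3891 and 4284 CPM. In DHA the same sums were 1628 and 1089 CPM for the lipid and glycan hydrolases and 5008 and 5695 CPM for the cathepsins. The V-ATPase genes summed to 1882 CPM in Con, 2235, 2204 and 2293 CPM with Veh and 2398, 2404 and 2527 CPM with DHA.

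**Figure D1:**
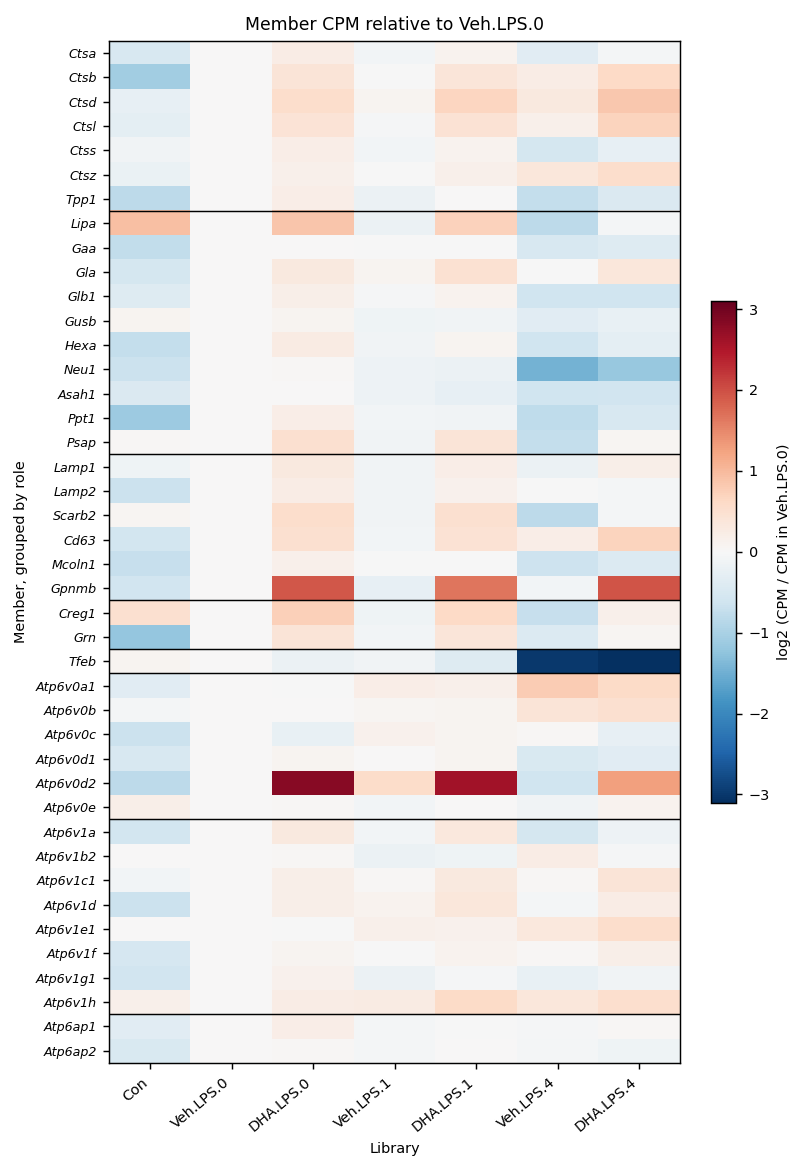
Each row is a member, grouped by role with lines between groups, and each column a library; colour gives log2 of the member's CPM over its CPM in Veh.LPS.0. Ctsh, which was nearly absent, is left out. Gpnmb and Atp6v0d2 are the reddest rows in the DHA libraries, Tfeb is darkest blue at 4 h of LPS, and Con is blue for most hydrolases but red for Lipa and Creg1.

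The first question was how DHA changed the lysosomal genes relative to the carrier at each hour. At 0 h, 2 of the 37 members were higher in DHA, Lipa and Creg1, where 0.895% of all genes measured in as many cells were higher. At 1 h, 4 were higher, Lipa, Creg1, Scarb2 and Ctsd, against 1.07% of all such genes. At 4 h, 4 were higher, Creg1, Psap, Scarb2 and Lipa, against 1.4%. No member was lower in DHA at any hour, where 0.687%, 1.48% and 2.31% of all such genes were lower at 0, 1 and 4 h. Below the size limit the members also leaned one way. A ratio above 1 was found for 35 of 37 members at 0 h and 32 at 1 h, against 39.6% and 36.9% of all genes. At 4 h it was found for 33 members against 63.1% of genes, and with trimmed-mean (TMM) scaling for 27 members against 36.4%. The members' median log2 ratio was 0.21, 0.19 and 0.28 at 0, 1 and 4 h, where that of all genes was −0.04, −0.05 and 0.06. The comparisons share no library with each other, but each condition is 1 library. Without the cells that had a UMI of the cycling genes Mki67 or Top2a, 4 members were higher at 0 h, 5 at 1 h and 4 at 4 h, against 1.35%, 1.46% and 1.66% of all genes in the same cells. With every deposited barcode, 9 and 10 of 35 measured members were higher at 0 and 1 h, and 11 of 32 after 4 h, against 1.97%, 2.68% and 2.89% of all genes. Atp6v1b2 was then lower at 4 h, against 5.25% of all genes. Those pools differ in make-up, as barcodes that failed the limits held 46.3% of UMIs in DHA.LPS.0 and 13.3% in Veh.LPS.0. Such barcodes had a higher summed CPM of members than kept cells in every library, and what part this had was not tested.

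Lipa (ENSMUSG00000024781, chr19:34492316-34527474, mm10), which encodes lysosomal acid lipase, had 187 CPM in Con. At 0, 1 and 4 h it stood at 97.9, 85.9 and 56.2 CPM with Veh and at 178, 160 and 93.2 CPM with DHA. DHA cells before LPS therefore had close to the level of Con cells, and Veh cells had less at each hour. The log2 ratio of DHA to Veh was 0.86 (interval 0.81 to 0.91) at 0 h, 0.90 (0.84 to 0.95) at 1 h and 0.73 (0.65 to 0.81) at 4 h. At an equal depth of 20000 UMIs per cell, a Lipa UMI was found in 82.6%, 77.5% and 54.3% of Veh cells and in 92.8%, 89.7% and 67.2% of DHA cells.

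Creg1, a secreted and lysosomal glycoprotein (ENSMUSG00000040713, chr1:165763758-165775309), was likewise higher in DHA than in Veh at each hour. It had 439 CPM in Con, 313, 286 and 191 CPM with Veh and 525, 478 and 349 CPM with DHA. The log2 ratio of DHA to Veh was 0.75 at 0 h, 0.74 at 1 h and 0.87 (0.83 to 0.91) at 4 h. Unlike Lipa, Creg1 was above its Con level in DHA at 0 and 1 h. Grn, the progranulin gene, had 131 CPM in Con, 300, 285 and 225 CPM with Veh and 393, 386 and 314 CPM with DHA, with log2 ratios of 0.39, 0.44 and 0.48 that stayed inside the limit.

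Scarb2, the membrane receptor that carries glucocerebrosidase to the lysosome, had 33.9 CPM in Con, 32.6, 30.3 and 18.6 CPM with Veh and 47.9, 46.2 and 31.5 CPM with DHA. Its log2 ratio was 0.55 (0.47 to 0.64) at 0 h, just inside the limit, and 0.61 (0.51 to 0.70) and 0.76 (0.62 to 0.90) at 1 and 4 h. By total UMIs the level in DHA after 4 h of LPS was near that in Veh without LPS, a comparison across hours that depends on the scaling. Cd63, a tetraspanin of late endosomes and lysosomes, had 304 CPM in Con, 452, 426 and 519 CPM with Veh and 641, 614 and 731 CPM with DHA, with ratios of 0.50, 0.53 and 0.50. Lamp1 and Lamp2 encode the most abundant proteins of the lysosomal membrane. Lamp1 had log2 ratios of 0.30, 0.30 and 0.37 and Lamp2 of 0.24, 0.23 and −0.05.

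Psap encodes prosaposin, the precursor of the saposins that help hydrolases reach sphingolipids. It had 216 CPM in Con, 211, 197 and 126 CPM with Veh and 296, 276 and 220 CPM with DHA, with log2 ratios of 0.49, 0.49 and 0.80 (0.75 to 0.86). The difference between the treatments was thus wider at 4 h, when Veh had its lowest level. Ctsd, the aspartyl protease cathepsin D, had 415 CPM in Con, 499, 525 and 619 CPM with Veh and 725, 797 and 889 CPM with DHA, with ratios of 0.54, 0.60 and 0.52. Its 3 values straddle the limit of 1.5-fold, so that its call at 1 h alone says little of the hour. That call ended with each cell weighted equally or without the 5% of cells with the most UMIs. The call of Scarb2 ended at 1 h in cells under 10% mitochondrial UMIs. With every barcode Scarb2 was not called at 4 h because too few cells held a UMI of it, while its ratio stayed past 1.5-fold.

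By role, the cathepsins with Tpp1 had a ratio above 1 for 7 of 7 measured members at each hour, with medians of 0.23, 0.21 and 0.29. Ctsl, a cysteine protease, had 1260, 1237 and 1408 CPM in Veh and 1691, 1716 and 2027 CPM in DHA. Ctsb, another, had 869, 860 and 1020 CPM in Veh and 1152, 1132 and 1326 CPM in DHA. At each hour the DHA value of Ctsl and of Ctsb was above the Veh value and above Con. By total UMIs each DHA value was also above the Veh values of the other hours, an order that depends on the scaling. The lipid and glycan hydrolases ranged more widely, with medians of 0.20, 0.08 and 0.29. Apart from Lipa and Psap, they included Gla, which removes galactose from glycolipids, with log2 ratios of 0.30, 0.40 and 0.36. They also included Gaa and Asah1, acid glucosidase and acid ceramidase, with log2 ratios of 0.00, 0.01 and 0.10 and of 0.01, −0.09 and 0.03.

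The 14 measured V-ATPase genes had median log2 ratios of DHA to Veh of 0.09, 0.09 and 0.14, and none was past the limit. The largest ratios of these were those of Atp6v1a, the catalytic subunit, at 0.31, 0.42 and 0.37. Atp6v0b, a ring subunit, had 391, 406 and 515 CPM in Veh and 395, 413 and 551 CPM in DHA. Atp6v0e had 292, 274 and 271 CPM in Veh and 300, 294 and 315 CPM in DHA, and Atp6v1b2 had 70.7, 62.2 and 83.5 CPM and 71.9, 64.2 and 69.0 CPM. With TMM scaling 9 of the 14 had a ratio above 1 at 4 h, with a median of 0.01. Over all genes with the same scaling, 36.4% had a ratio above 1 and the median was −0.06.

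**Figure D2:**
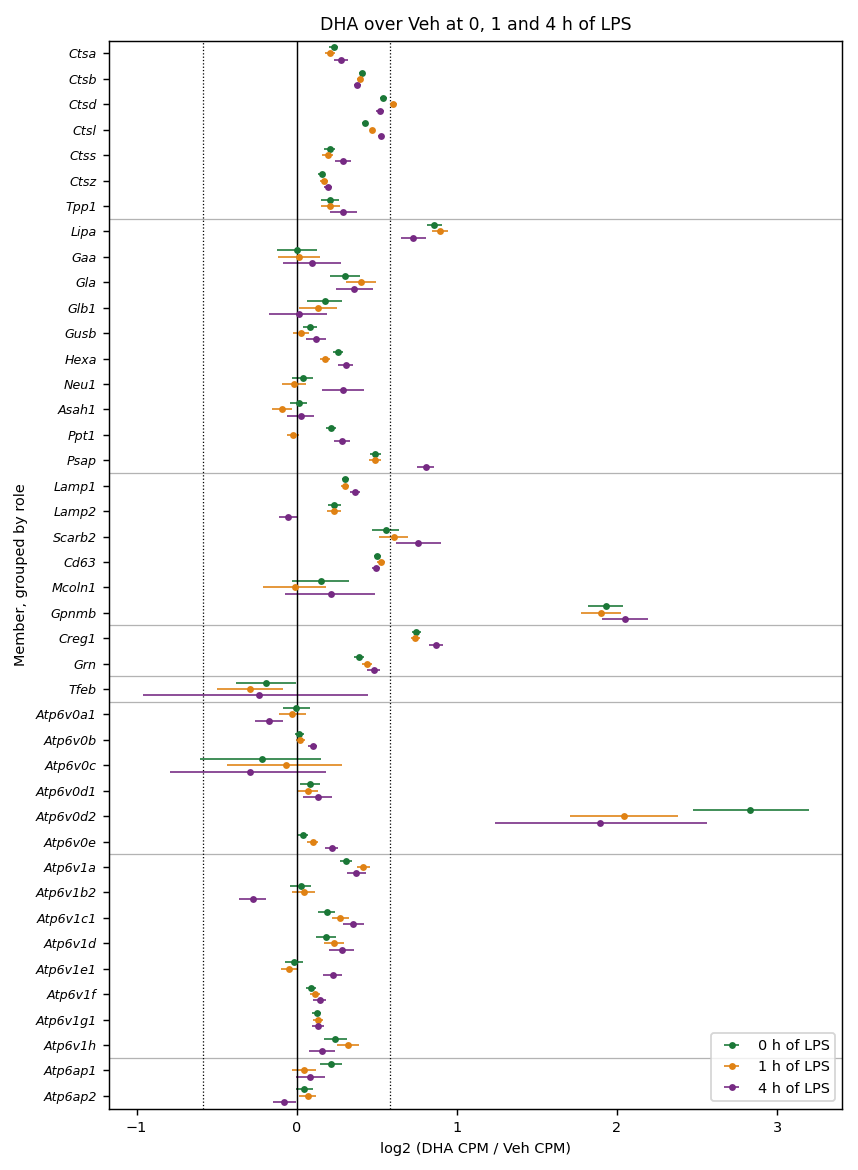
Points give log2 of DHA CPM over Veh CPM for each member, grouped by role, at 0, 1 and 4 h of LPS, and bars give the exact binomial 95% interval, which covers counting error only. Dotted lines mark 1.5-fold in either direction. Most enzymes and membrane proteins lie right of 0, the measured V-ATPase genes lie mostly nearer to it, and Gpnmb and Atp6v0d2 stand apart.

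The widest ratios between DHA and Veh among the members belonged to Gpnmb and Atp6v0d2, which few cells expressed. Gpnmb (ENSMUSG00000029816, chr6:49036518-49058182) encodes a transmembrane glycoprotein of lysosomes and melanosomes that is high in lipid-laden macrophages. It had 7.74 CPM in Con, 11.8, 9.92 and 11.1 CPM with Veh and 44.8, 37.1 and 45.7 CPM with DHA. The log2 ratio was 1.93 (1.82 to 2.04) at 0 h, 1.90 (1.78 to 2.03) at 1 h and 2.05 (1.90 to 2.19) at 4 h. All 3 DHA libraries were thus above the 4 others. Most of the UMIs were in few cells, and without the cells with at least 5 Gpnmb UMIs the ratios were 0.94, 1.36 and 1.55, a setting that by its construction takes Gpnmb UMIs away.

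Atp6v0d2 and Atp6v0d1 encode alternative forms of the d subunit of V0, of which the first is known from osteoclasts and macrophages and the second from most cells. Atp6v0d2 (ENSMUSG00000028238, chr4:19876838-19922566) had 0.525 CPM in Con, 0.921, 1.36 and 0.597 CPM with Veh and 6.57, 5.63 and 2.22 CPM with DHA. The log2 ratio of DHA to Veh was 2.83 (2.48 to 3.20), 2.04 (1.71 to 2.38) and 1.90 (1.24 to 2.56), from 35 to 230 UMIs per library. Without the cells rich in Gpnmb it was 1.90 at 0 h and 1.69 at 1 h, and at 4 h it turned to −0.63, with under 10 UMIs left in at least 1 of the libraries. With every barcode it was 1.33 at 1 h and 0.79 at 4 h. At equal depth an Atp6v0d2 UMI was found in 0.605%, 1.04% and 0.604% of Veh cells and in 3.44%, 3.02% and 1.30% of DHA cells. At 4 h these were 6 Veh cells and 9 DHA cells, and the intervals of the shares overlapped (0.222 to 1.31 and 0.596 to 2.45). In DHA.LPS.4, 1 cell held 10 of the 30 UMIs at that depth, so the ratio at 4 h rests on few cells. Atp6v0d1 (ENSMUSG00000013160, chr8:105524461-105566064) had 79.8, 79.9 and 57.5 CPM in Veh and 84.4, 84.0 and 63.0 CPM in DHA, with ratios of 0.08, 0.07 and 0.13. The ratios of the paralogues were thus far apart at 0 and 1 h, and Atp6v0d2 stayed the lower of the pair in CPM in every library. No osteoclast gene of the list came above 3.40 CPM, which Mmp9 reached.

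The members were then read cell by cell, with each cell thinned to 20000 UMIs so that depth was equal. The median cell had 139 UMIs of the 43 members in Con. At 0, 1 and 4 h it had 176, 171 and 171 with Veh and 209, 201 and 215 with DHA. The distributions overlapped. In DHA, 73.6%, 72.7% and 79.3% of cells were above the median cell of Veh at the same hour. For the 18 hydrolase genes the median cell had 97, 95 and 95 UMIs in Veh and 116.5, 114 and 125 in DHA. For the 16 V-ATPase genes it had 43, 43 and 44 with Veh and 45, 44 and 49 with DHA. The 95th percentile of the 43 members was 257, 249 and 285 UMIs with Veh at 0, 1 and 4 h, and 368, 365 and 368 with DHA.

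**Figure D3:**
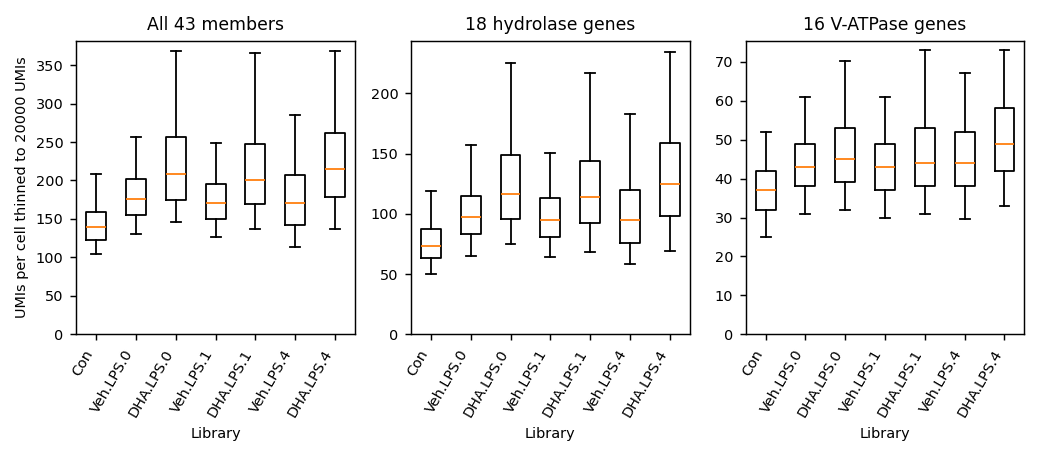
Boxes give the median and quartiles over cells, and whiskers the 5th and 95th percentiles, of the UMIs of all members, of the hydrolases and of the V-ATPase per cell thinned to 20000 UMIs, for each library. The medians for all members run from 139 in Con to 215 in DHA.LPS.4, and the DHA boxes reach higher than the Veh boxes of the same hour, more so for the hydrolases than for the V-ATPase.

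Gpnmb was uneven between cells. At equal depth a Gpnmb UMI was found in 4.68% of Con cells (interval 3.94 to 5.51), in 8.87%, 8.40% and 7.55% of Veh cells and in 17.8%, 20.4% and 18.8% of DHA cells, and before thinning in 6.50% of Con cells, 10.6% to 12.3% of Veh cells and 24.1% to 26.9% of DHA cells. At least 5 UMIs were found in 0.619% of Con cells, 1.01%, 0.911% and 1.51% of Veh cells and 4.30%, 4.15% and 4.34% of DHA cells. In DHA.LPS.0 the 35 cells with the most Gpnmb held 72.1% of its UMIs. The libraries held no other kind of cell in which to measure free RNA, so the shares with a single UMI stand without such a comparison.

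Cells rich in Gpnmb, with at least 5 UMIs, also held more of the other members. Their median cell had 351 UMIs of the 42 other members in DHA.LPS.0, where cells without Gpnmb had 202.5. In Veh.LPS.0 the values were 243 and 173, and in Con 244 and 137.5. The order was the same in all 7 libraries, each with 15 to 33 rich cells. Before thinning, the median total of rich cells was the higher one in every library but Veh.LPS.4. It was 53478 UMIs against 46068 in DHA.LPS.0, 47686 against 36848 in DHA.LPS.1 and 55712 against 56010 in Veh.LPS.4. Whether some rich cells were doublets was not tested. These groups were set by a measured gene and are a description.

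Among the members, Ctsd had a mean of 39.8 UMIs in rich cells and 11.9 in cells without Gpnmb in DHA.LPS.0, and 18.8 and 9.05 in Veh.LPS.0. Ctsl had 68.3 and 29.8 UMIs in the same groups of DHA.LPS.0. Ppt1, which removes fatty acids from proteins, had 6.73 and 6.59, and Scarb2 0.833 and 0.972. Atp6v0d2 was found in 36.7% of the rich cells of DHA.LPS.0 and in 0.871% of those without Gpnmb, and in 27.3% and 1.58% in DHA.LPS.1. Veh.LPS.4 had no Atp6v0d2 UMI in its 15 rich cells. Leaving out the rich cells of every library left 2, 2 and 4 members higher in DHA at 0, 1 and 4 h, against 0.833%, 0.907% and 1.34% of all genes, with Lipa and Creg1 among them each time and Scarb2 and Ctsd inside the limit at 1 h.

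**Figure D4:**
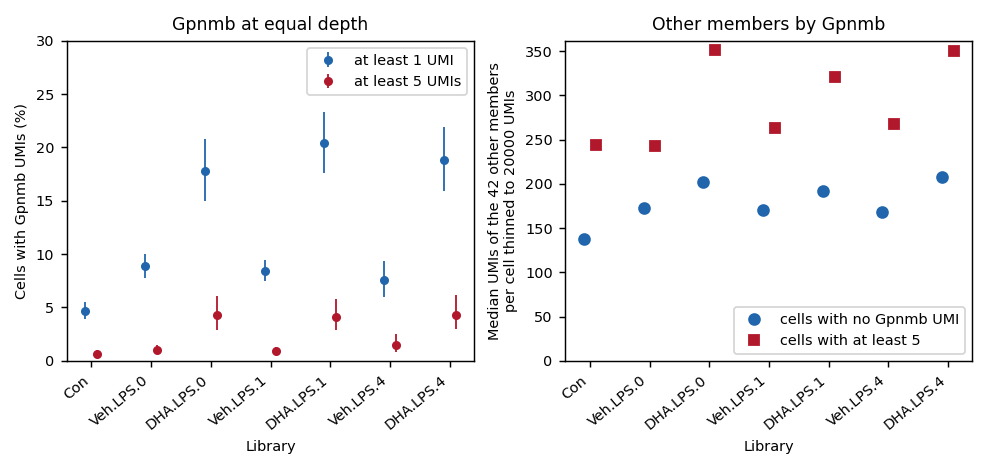
Left, the share of cells with at least 1 or at least 5 Gpnmb UMIs after thinning to 20000 UMIs per cell, with exact binomial 95% intervals. Right, the median UMIs of the 42 other members in cells with no Gpnmb UMI and in cells with at least 5. Both shares are higher in the 3 DHA libraries, and the squares are above the circles in each library, from 243 to 351 UMIs against 137.5 to 208.

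Reduced serum, BSA and time in culture were read together from Veh.LPS.0 against Con, a comparison that uses the same Veh.LPS.0 library as the ones above. Of the 37 members, 10 were higher and 1 lower in Veh.LPS.0, against 7.59% and 8.92% of all genes. The members' median log2 ratio was 0.40, and that of all genes was −0.12. The 10 were Grn, Ppt1, Ctsb, Tpp1, Gaa, Hexa, Atp6v1d, Neu1, Lamp2 and Atp6v1g1. They came from several roles, with the V-ATPase genes among them from V1 alone. The largest ratios were those of Grn, at 1.19 (1.17 to 1.22), and of Ppt1, with 133 CPM in Con and 293 CPM in Veh.LPS.0, at 1.14. Ctsb, with 408 and 869 CPM, had a ratio of 1.09. Tpp1, a peptidase of the lysosomal lumen, had 55.8 and 98.6 CPM and a ratio of 0.82 (0.78 to 0.87). Gaa had 12.2 and 20.9 CPM and a ratio of 0.77.

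Among the members past the limit, Lipa was the exception in direction, with a log2 ratio of −0.93 (−0.97 to −0.90). Of the 37 measured members, 28 had a ratio above 1 and 9 a ratio below 1, where 38.5% of all genes had a ratio above 1. Creg1 had −0.49, inside the limit. Keeping only cells with no Mki67 or Top2a UMI at equal depth left 133 Con cells and 307 Veh.LPS.0 cells. In them 3 of 37 members were higher, Ctsb, Grn and Ppt1, and 2 lower, Lipa and Creg1. These counts were near the shares of all genes, 5.82% and 7.23%. The part of the cell cycle in the other differences was not tested further.

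After 1 h of LPS no member was past the limit in either treatment. In Veh, 4.38% of all genes were higher and 2.08% lower at 1 h than at 0 h, and in DHA 4.89% and 2.71%. The members' median log2 ratio was −0.08 in Veh and −0.05 in DHA, where that of all genes was −0.09 and −0.11. The measured member with the highest ratio in both treatments was Atp6v1h, the regulatory H subunit of V1 that couples ATP splitting to proton flow. It had 58.3 CPM in Con, 52.7, 63.3 and 67.7 CPM with Veh and 62.3, 78.9 and 75.6 CPM with DHA, with log2 ratios of 1 h to 0 h of 0.26 (0.21 to 0.32) in Veh and 0.34 (0.26 to 0.42) in DHA. Ppt1 had 293 and 276 CPM in Veh and 340 and 272 CPM in DHA at 0 and 1 h, with ratios of −0.08 and −0.32 (−0.36 to −0.28). Of the members in few cells, Atp6v0d2 had ratios of 0.57 in Veh and −0.22 in DHA, Gpnmb −0.24 and −0.27 and Atp6v0c 0.15 and 0.30, where the last interval ran from −0.16 to 0.76. These ratios were unsteady, and in cells with no Mki67 or Top2a UMI those of Veh were 1.38 for Atp6v0d2 and −1.31 for Gpnmb.

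At 4 h of LPS the lipid and glycan hydrolases and the V-ATPase genes leaned apart, as described below, while the other larger roles were split. In Veh 1 member was higher, Atp6v0a1, and 10 were lower, Neu1, Scarb2, Lipa, Ppt1, Tpp1, Psap, Creg1, Asah1, Glb1 and Hexa. Over all genes, 11.4% were higher and 32.6% lower. In DHA 1 was higher, Atp6v0a1, and 8 were lower, Neu1, Lipa, Glb1, Ppt1, Tpp1, Asah1, Scarb2 and Creg1. There 9.9% of all genes were higher and 29.2% lower. By total UMIs the 37 measured members were thus called no more often than all genes, in either direction or treatment. These counts depend on the scaling, because the median log2 ratio of all genes was −0.28 in Veh and −0.24 in DHA by total UMIs but 0.15 and 0.06 with TMM factors. With TMM factors 10 members were higher and 1 lower in Veh, against 24.2% and 16.4% of all genes, and 5 were higher and 2 lower in DHA, against 19.2% and 16.8%. Atp6v0a1 was higher and Neu1 lower in both treatments under either scaling.

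Set against the median of all genes, which removes the scaling, the lipid and glycan hydrolases were low and most of the V-ATPase high. Of 10 lipid and glycan hydrolases, 1 was above the median of all genes in each treatment, Gla, with the group's median at −0.35 in Veh and −0.34 in DHA. Of 14 V-ATPase genes, 12 were above it in each treatment, with medians of 0.27 in Veh and 0.30 in DHA. The cathepsins were split. Ctsb, Ctsd, Ctsl and Ctsz were above it, at 0.44 to 0.63 in Veh and 0.45 to 0.63 in DHA, while Ctsa, Ctss and Tpp1 were below. The membrane proteins were split too, with Cd63 above it and Scarb2 below in both treatments. The 2 treatments have no library in common here, but each shares its 0 h and 4 h libraries with the comparisons of DHA and Veh.

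Neu1 encodes the lysosomal sialidase (ENSMUSG00000007038, chr17:34931253-34937297). It had 44.4 CPM in Con, 70.9, 63.1 and 25.6 CPM with Veh and 72.9, 62.5 and 31.3 CPM with DHA. The log2 ratio of 4 h to 0 h was −1.47 (−1.55 to −1.39) in Veh and −1.22 (−1.34 to −1.10) in DHA, so both 4 h libraries were below Con. Lipa had −0.80 (−0.86 to −0.74) in Veh and −0.93 in DHA. Ppt1, with 170 CPM at 4 h in Veh and 207 CPM in DHA, had −0.78 and −0.72. Tpp1, with 98.6 and 58.7 CPM in Veh and 114 and 71.8 CPM in DHA at 0 and 4 h, had −0.75 and −0.67. Scarb2 had −0.81 and −0.61, and Glb1, the lysosomal galactosidase, −0.62 and −0.79. These ratios are by total UMIs. With TMM factors only Neu1 stayed past the limit in Veh, and only Lipa and Neu1 in DHA.

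Atp6v0a1, one of the alternative a subunits through which V0 carries protons, rose past the limit in both treatments. It had 34.4 CPM in Con, 44.1, 50.4 and 75.4 CPM with Veh and 44.0, 49.5 and 67.0 CPM with DHA. Its log2 ratio of 4 h to 0 h was 0.78 (0.71 to 0.84) in Veh and 0.61 (0.50 to 0.71) in DHA. Without mitochondrial and ribosomal protein genes in the total, with every barcode, with cells under 10% mitochondrial UMIs, or in cells with no Mki67 or Top2a UMI, it was inside the limit in DHA. In the last of these Atp6v1e1 was past it instead. Other subunits of both sectors had smaller ratios, among them Atp6v0b with 0.40 and 0.48 and Atp6v1e1 with 0.33 and 0.57. Atp6v1a was lower than its 0 h level, with −0.54 and −0.47.

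**Figure D5:**
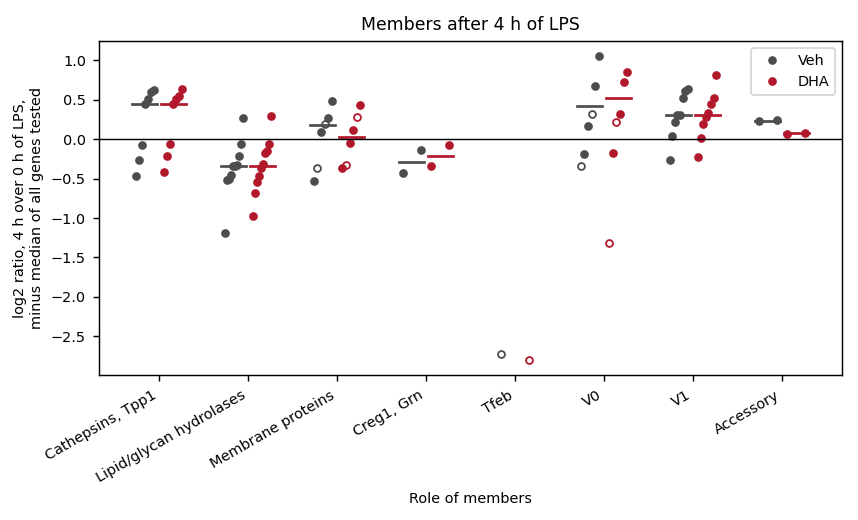
Points are members with at least 10 UMIs in both libraries, by role; the vertical axis is the log2 ratio of CPM at 4 h of LPS to 0 h minus the median of all genes tested, in Veh and DHA. Open points are members with a UMI in under 50% of cells, and lines are medians of the filled points. Lipid and glycan hydrolases lie mostly below 0, V0 and V1 mostly above, and Tfeb is lowest at −2.72 and −2.80.

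Tfeb, named here after its values were seen, was too sparse for the limit on cells. It had 11.0 CPM in Con, 10.3, 9.56 and 1.28 CPM with Veh and 8.99, 7.83 and 1.09 CPM with DHA. The log2 ratio of 4 h to 0 h was −3.00 (−3.36 to −2.66) in Veh, from 1013 and 75 UMIs, and −3.05 (−3.71 to −2.45) in DHA, from 315 and 24 UMIs. Between DHA and Veh its log2 ratio was −0.19 (−0.38 to −0.01) at 0 h, −0.29 (−0.50 to −0.09) at 1 h and −0.23 (−0.96 to 0.45) at 4 h. Its relatives went otherwise. Tfe3 had 29.9, 53.4 and 41.3 CPM in Veh and 28.9, 54.3 and 43.1 CPM in DHA, and Mitf had 35.2, 36.1 and 36.3 CPM and 40.9, 40.7 and 40.6 CPM. Tfe3 was thus higher by over 1.5-fold at 1 h in both treatments, with log2 ratios of 0.84 and 0.91.

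A list of 84 other genes of the lysosome, its sorting receptors and its nutrient sensing was read in the same way. Between DHA and Veh, at 0 h 1 of 49 measured genes was higher, at 1 h 4 of 46 were, and 1 of 42 was after 4 h, while none was lower. The shares of all genes that were higher in DHA were 0.895%, 1.07% and 1.4% in the same order. Those that were lower were 0.687%, 1.48% and 2.31%. In a list this small, a single higher gene or the lack of a lower one is near such shares. Tcirg1, which encodes the a3 subunit of V0 known from osteoclasts, was among the higher genes at each hour. It had 33.7 CPM in Con, 42.3, 49.5 and 73.2 CPM with Veh and 69.7, 78.4 and 113.2 CPM with DHA, with log2 ratios of 0.72 (0.65 to 0.79), 0.66 and 0.63. The value at 4 h was inside the limit with TMM factors, at 0.51. Of the other a subunits, Atp6v0a1 had ratios of 0.00, −0.03 and −0.17 and Atp6v0a2 of −0.09, 0.01 and 0.14. The 3 others at 1 h were Fnip2, which acts with folliculin in nutrient sensing, at 0.76, Npc1, the cholesterol exporter of the lysosome, at 0.67, and Pld3, a lysosomal nuclease, at 0.63. The median log2 ratio of the list's measured genes was 0.10, 0.12 and 0.13, below the 0.21, 0.19 and 0.28 of the 37 measured members.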

How the data were processed

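FLMs were profiled with 10x Genomics 3' chemistry, 1 library per condition. The authors deposited counts of UMIs per gene and called barcode, not normalized, for each library. Per the file headers and the submitters' processing notes they were made with Cell Ranger 3.1.0 on mm10, while the paper's methods name another version. Cells were kept by the limits of the study's methods, more than 20000 UMIs, at least 2000 genes and under 20% mitochondrial UMIs, and doublets were neither called nor removed. Their UMIs were summed per gene and library and divided by the total of 22045775 to 125716982 UMIs per library to give CPM. Ratios were compared in 8 pairs of libraries with exact conditional binomial 95% intervals, which cover counting error only. With 1 library per condition no test was made. For values per cell, each cell was thinned to 20000 UMIs without replacement, which left out no kept cell. Cells with Mki67 or Top2a UMIs and Gpnmb-rich cells were picked after this thinning.

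The 43 members, the gene lists and the limits of 1.5-fold and 50% of cells were chosen with earlier results of these data known. Members past the limits were named, at most the 5 farthest per direction, and where fewer than 4 passed, the 4 with the largest ratio among members with at least 10 UMIs in both libraries. Other members are named by role. Gene positions are from RefSeq on GRCm38.p6, the assembly of mm10. The interval and the thinning were tested on simulated counts. Alternatives were TMM factors (edgeR 4.0.16), median-of-ratios factors, totals without mitochondrial and ribosomal protein genes, other limits on cells, equal weight per cell, and leaving out the 5% of cells with the most UMIs, shared barcodes, cells with Mki67 or Top2a UMIs, or, chosen after seeing the data, Gpnmb-rich cells. Python 3.11.15 with scipy 1.17.1 and R 4.3.3 were used.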

Additional observations from a re-analysis of the deposited data

Results flagged for a closer look

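The effect of LPS had opposite signs in Veh and DHA, with an interval that excluded no difference in each treatment, for 2 members. The amounts were small, and the differences were not tested. Members with opposite signs whose interval included no difference in either treatment were not counted, among them Atp6v0d2 at 1 h and Atp6v1b2 at 4 h. Ctsl had a log2 ratio of 1 h to 0 h of −0.027 in Veh and 0.02 in DHA. Atp6v0e had a log2 ratio of 4 h to 0 h of −0.11 in Veh and 0.07 in DHA. With TMM factors both were positive in both treatments, at 0.06 and 0.13 for Ctsl and 0.32 and 0.37 for Atp6v0e.

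The barcodes that failed the limits on cells, mostly for a mitochondrial share of at least 20%, enter the comparisons of the report only under the alternatives that loosen those limits. They held 46.3%, 48.6% and 61.3% of the UMIs of the DHA libraries at 0, 1 and 4 h and 13.3%, 17.6% and 22.9% of those of the Veh libraries. In them the members' summed CPM was above that of the kept cells in every library, at 12192 against 7325 in Con and 17198 against 11523 in DHA.LPS.0. In these barcodes 4 members were higher in DHA than in Veh at 1 h, with the whole interval above 1.5-fold, where 1.1% of all genes were, counting those that had 10 or more UMIs in each library. The ratios of CPM were 1.74 for Lipa (interval 1.66 to 1.83), 1.80 for Scarb2, 1.70 for Cd63 and 1.86 for Creg1. At 4 h there were 4 as well, against 0.971% of such genes, and at 0 h there were 0, against 0.272%. The ratios at 4 h were 1.72 for Scarb2 (1.57 to 1.90), 1.71 for Cd63, 2.29 for Gpnmb and 2.28 for Creg1. The interval covers counting error only. In the kept cells the ratios at 4 h were 1.69, 1.41, 4.13 and 1.83 in the same order. Of the 42 members that met the same limit on UMIs, 23, 30 and 35 had a ratio above 1 at 0, 1 and 4 h, against 29.6%, 24.7% and 44.8% of all such genes. Their median log2 ratio was 0.019, 0.23 and 0.37, where that of all such genes was −0.11, −0.34 and −0.05.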

How the results depend on the processing

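No paired analysis was possible because each condition had 1 library and the labels carry no replicate numbers that pair them. Of 38 log2 ratios of named members, 37 kept their sign under all 11 alternatives run on each. The exception was Atp6v0c, DHA.LPS.1 against DHA.LPS.0, which ran from −0.60 to 0.41. The 38 were picked for their size in these same data, so agreement in sign was in part fixed in advance. Members in few cells moved most in size, Gpnmb from 0.94 to 2.22 and Atp6v0d2 from 1.90 to 3.22 for DHA against Veh at 0 h, and from −1.31 to −0.13 and 0.075 to 1.38 for Veh at 1 h against 0 h. Outside the 38, Atp6v0d2 in DHA against Veh at 4 h turned from 1.90 to −0.63 without Gpnmb-rich cells. In Veh.LPS.0 against Con it turned from 0.81 to −1.95 in cells with no Mki67 or Top2a UMI. Gpnmb in Veh.LPS.4 against Veh.LPS.0 turned from −0.09 to 0.34 with TMM factors. Counts of members past the limits were within 1.5 times the reported one in 172 of 192 settings. Many of these had 0 in both counts and agree trivially, among them all for 1 h of LPS and all but 1 for members lower in DHA. The settings that differed by more were as follows. With all deposited barcodes, members higher in DHA numbered 9, 10 and 11 at 0, 1 and 4 h and 1 was lower at 4 h, and 0 were higher in DHA.LPS.4 than in DHA.LPS.0. In cells with no Mki67 or Top2a UMI, 3 were higher and 2 lower in Veh.LPS.0 than in Con, and 4 were higher in DHA than in Veh at 0 h. With no limit on the share of cells, 4 were higher in the last pair. Without Gpnmb-rich cells, 2 were higher in DHA at 1 h. From 0 to 4 h of LPS, TMM and median-of-ratios factors both gave 10 higher and 1 lower in Veh, and 5 and 7 higher with 2 lower in DHA. Totals without mitochondrial and ribosomal protein genes, and cells under 10% mitochondrial UMIs, gave 0 higher in DHA. The same factors turned the members' median log2 ratio positive in the LPS comparisons, to 0.010 and 0.041 at 1 h and 0.24 and 0.26 at 4 h in Veh, and to 0.057 and 0.063 at 1 h and 0.064 and 0.11 at 4 h in DHA, as they lift all ratios of these pairs. The causes of the other moves were not tested. Few UMIs limit Ctsh, Atp6v0c, Atp6v0d2 and, at 4 h, Tfeb, and the single library per condition limits every value.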
